A study of Mus musculus with 12 samples.

Results

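Type I interferon stimulated genes are the genes that cells switch on after interferon alpha or beta binds its receptor. A list of 34 such genes was followed, of which 32 had a probe set assigned to that gene alone, out of 18193 genes with such a probe set on the Affymetrix mouse arrays. All 32 passed the filter on low values and were among the 12797 genes tested. The probe set listed for Isg15 also carries another gene's symbol, and Ifi44 had no probe set assigned to it here, so both were not analysed. The members are a list of gene names, drawn up with earlier results of these data known, and where a gene had several probe sets the brightest on average was used.

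The arrays come from a mouse model of disease driven by ZMYM2-FGFR1, a fusion of a zinc finger protein with a receptor tyrosine kinase. T lymphomas (n = 4) came from diseased mice of the third serial transplant. Lymphomas 1, 2 and 3 were unsorted tumour tissue in which most cells were GFP+ Thy1+ double-positive cells, and lymphoma 4 was sorted for GFP+ Thy1+ cells with both CD4 and CD8. ZNF112 (n = 1) is labelled a cell line with no further description. CD4+CD8+ double-positive (DP) thymocytes (n = 3), the normal counterpart of the lymphoma cells, were sorted from thymuses pooled from normal Balb/c mice. Leukemia stem cells (LSC, n = 2) came from marrow or spleen of pooled diseased mice and were sorted as GFP+, lineage-negative, Sca-1+ and c-kit+. Normal haematopoietic stem cells (HSC, n = 2) came from pooled marrow of normal female Balb/c mice and were sorted by lineage, Sca-1 and c-kit alike. Age, and the strain and promoter behind the fusion, are not given in the labels used here, and the host cells of the unsorted tumours remain in those samples.

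In the textbook pathway, interferon bound to its receptor activates the kinases JAK1 and TYK2. These phosphorylate signal transducers such as STAT2, which acts with IRF9 at the interferon-stimulated response element in promoters. The products include sensors of foreign RNA and DNA, transcription factors that amplify the signal, proteins that block viral replication, and Usp18, which turns the receptor off. Several of the same genes, Irf1 foremost, also answer interferon gamma through the gamma-activated site. In thymus and marrow many of these genes have a low steady level, and dendritic cells and macrophages carry high levels of some, such as Irf8 and Samhd1.

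The response element is shown first because it is a sequence feature known for this class of genes, although not every member matched it here. RefSeq promoter windows of 300 bases (build GRCm38.p6, from 250 bases before to 50 after the start) were matched by symbol for 26 of the 34 listed genes, 24 of them measured. The letters GAAANNGAAA, on either strand, occurred in windows of 10 of these 24 genes, against 3.99% of all 27025 genes with a window. The gamma-activated site, searched as TTCNNNGAA, which reads alike on both strands, occurred in 9 of the 24, against 9.55% of all genes. A match describes letters in a window and is not evidence of a bound factor. The stretches below run 5′ to 3′ on the gene's own strand with the matches in capitals. They cover the measured members whose response element match lies wholly before the start, and Irf1 for its gamma-activated site. Overlapping matches merge into 1 run of capitals in Oas1a and Bst2, and a gamma-activated site match overlaps the Bst2 run.
Ifit1 (chr19:34640770-34640828, + strand): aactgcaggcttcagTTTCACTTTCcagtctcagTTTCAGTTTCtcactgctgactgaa
Ifit3 (chr19:34583358-34583431, + strand): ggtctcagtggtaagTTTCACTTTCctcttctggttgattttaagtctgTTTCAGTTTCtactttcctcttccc
Stat2 (chr10:128270261-128270300, + strand): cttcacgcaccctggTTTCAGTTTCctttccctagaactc
Oas1a (chr5:120907526-120907560, - strand): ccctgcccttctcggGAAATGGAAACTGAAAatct
Rsad2 (chr12:26456548-26456587, - strand): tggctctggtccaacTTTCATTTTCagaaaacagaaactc
Bst2 (chr8:71537572-71537617, - strand): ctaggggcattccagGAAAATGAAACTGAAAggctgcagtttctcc
Cxcl10 (chr5:92349078-92349117, - strand): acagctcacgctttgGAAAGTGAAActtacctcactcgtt
Irf1 (chr11:53769909-53769947, + strand): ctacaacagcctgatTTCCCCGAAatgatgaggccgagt

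Values are log2 of the authors' probe set intensities, so a step of 1 is a 2-fold difference. Array medians were 99.5 to 109 in intensity for T lymphoma, the ZNF112 line and DP thymocytes and 44.3 to 46.1 for LSC and HSC. The arrays therefore look normalized in separate sets, and levels are compared only within a set. The labels were checked against markers. T cell markers were high in T lymphoma and DP thymocytes, but lower in T lymphoma. The sum over 7 markers was 41387 to 63372 there, against 100393 to 112314 in DP thymocytes, and 2 of the 7 differed (limma adjusted p under 0.05). In the ZNF112 line Thy1, Cd3g and Rag1 were at log2 13.41, 13.72 and 13.64, against 13.00 to 13.30, 12.64 to 13.65 and 13.69 to 13.99 in T lymphoma. Cd4, Cd8a and Cd8b1 were at 6.88, 8.51 and 6.19 in the line, against at least 9.61, 12.14 and 11.34 in T lymphoma. Of the progenitor markers, Kit was at 12.31 and 10.99 in LSC, against up to 11.43 in HSC, and Slamf1 was at 8.70 and 9.95, against 7.61 and 8.45. Hlf was at 5.37 and 4.77 in LSC, against 10.66 and 11.10 in HSC, and the sum over 6 progenitor markers was 7545 and 3164 in LSC, against 6924 and 10305 in HSC. The summed intensity of 10 macrophage markers was 16628 to 40426 in the unsorted lymphomas, 1115 in the sorted lymphoma and 1153 in the ZNF112 line, against 984 to 1075 in DP thymocytes. The sum for 6 stroma and endothelium markers was 11344 to 24306 in the unsorted lymphomas, 468 in the sorted one and 530 in the line, against 437 to 509 in DP thymocytes. B cell markers summed to 4280 in lymphoma 3 and to 267 to 410 in the other lymphomas, against 493 to 553 in DP thymocytes. LSC 1 and LSC 2 differed in the same checks, with granulocyte marker sums of 11206 and 1047 (HSC 30393 and 32386), T cell marker sums of 4229 and 18608 (HSC 739 and 418) and macrophage sums of 7016 and 1772 (HSC 22724 and 3164). Cd34 was at 10.63 in LSC 1 and 5.10 in LSC 2, against 10.48 and 11.50 in HSC. Over all genes tested LSC 2 had a Pearson correlation of 0.869 to 0.897 with the T lymphomas, against 0.795 with LSC 1 and 0.791 and 0.801 with HSC. The 3′ to 5′ signal ratio of beta-actin, which rises as RNA is shortened, was 13.6 and 9.82 in LSC, against 5.79 and 3.91 in HSC, and 2.44 to 3.69 in T lymphoma, against 2.18 to 2.23 in DP thymocytes.

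**Figure D1:**
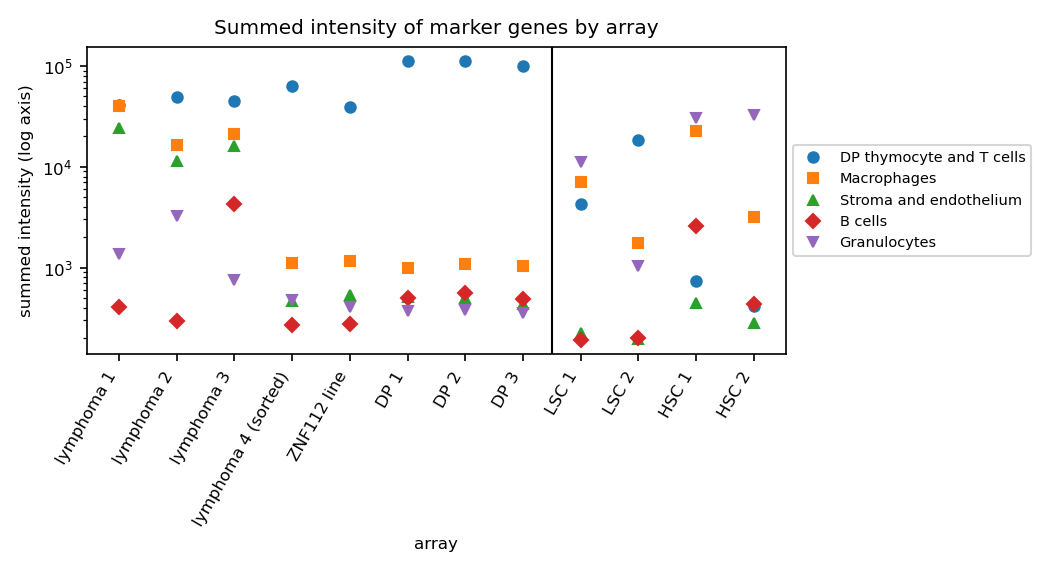
Summed intensity (log axis) of marker genes of 5 cell classes on each of the 12 arrays, with a vertical line between the T cell set (left) and the stem cell set (right). Macrophage and stroma sums in the sorted lymphoma and the ZNF112 line lie near those of DP thymocytes and far below the unsorted lymphomas.

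The first comparison asks how these genes differ between the T lymphomas and DP thymocytes, their normal counterpart. Of the 32 members, 12 rose and 0 fell (limma, Benjamini-Hochberg adjusted p under 0.05), whereas 3.37% of all genes tested rose and 3.18% fell. The genes that rose were Usp18, Samhd1, Parp14, Parp9, Dtx3l, Ifi35, Irf1, Irf9, Ddx58, Bst2, Xaf1 and Rtp4. The median log2 difference was 1.73 over the members and -0.02 over all genes. All 4 lymphomas lay above all 3 DP arrays for 23 members, against 15.3% of all genes, and for 0 members did all lie below. In these bulk samples more cells of a type and more RNA per cell cannot be told apart. Each of the 12 genes was above every DP array in the sorted lymphoma, itself 1 of the 4 lymphomas that gave the calls, against 38.1% of all genes. The same held in the ZNF112 line, against 43% of all genes. Limma called 19 members without the sorted lymphoma (12.3% of all genes), 4 with it as the only lymphoma (2.37%), and 6 to 7 when any 1 DP array was left out (2.99% to 3.12%), so the count over all genes moved in the same direction. Usp18, Parp9, Parp14 and Ifi35 kept their calls in all 18 alternative fits.

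**Figure D2:**
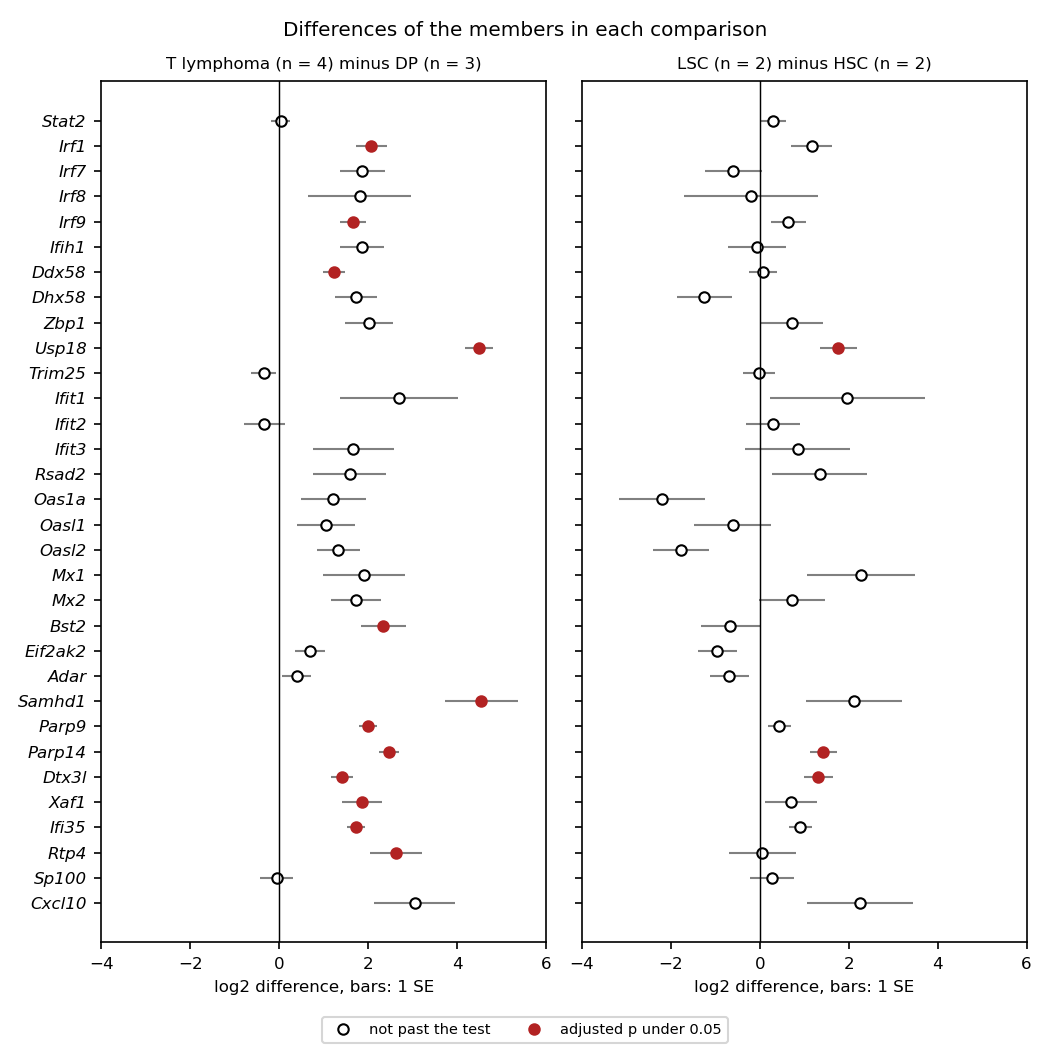
Log2 difference of each of the 32 members with its standard error, for T lymphoma minus DP thymocytes (left) and LSC minus HSC (right); filled points passed the test. In the left panel 12 members passed, all to the right of 0, and in the right panel 3 passed.

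Among the members that shape the ISG15 system and the receptor's feedback, Usp18, the protease that strips ISG15 from proteins and also blocks the interferon receptor, had the lowest adjusted p of the 32. Its log2 intensity was 11.53, 10.83 and 12.05 in unsorted lymphomas 1, 2 and 3, 10.80 in the sorted lymphoma and 11.59 in the ZNF112 line, against 6.94, 6.87 and 6.61 in DP thymocytes. The lymphomas and the line lay far above the normal cells with no overlap, and the sorted tumour was as high as unsorted lymphoma 2. The difference was 4.49 ± 0.32 (SE), a 22.5-fold rise (limma adjusted p = 5.97e-05). Trim25, a ubiquitin ligase that activates the RNA sensor RIG-I, was at 12.93 to 13.46 in T lymphoma, against 13.41 to 13.53 in DP thymocytes, where it was the brightest member. Its groups overlapped and it did not pass (difference -0.35 ± 0.28, limma adjusted p = 0.511).

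All 3 genes of the PARP and Deltex group rose. Parp9 and Dtx3l form a complex of an ADP-ribosyl transferase family protein with a ubiquitin ligase, and Parp14 is a related ADP-ribosyl transferase. Parp9 was at 12.76, 12.64 and 12.80 in the unsorted lymphomas, 12.56 in the sorted lymphoma and 13.02 in the line, against 10.72, 10.76 and 10.62 in DP thymocytes. Dtx3l was at 12.50, 12.42 and 12.36 in the unsorted lymphomas, 12.52 in the sorted lymphoma and 12.81 in the line, against 11.21, 10.81 and 11.08 in DP thymocytes. Parp14 was at 12.24, 12.48 and 12.22 in the unsorted lymphomas, 12.90 in the sorted lymphoma and 12.61 in the line, against 9.85, 10.05 and 10.07 in DP thymocytes. Dtx3l and Parp9 were the most even members among the tumours: the range over the 4 lymphomas was 0.24 for Parp9, 0.15 for Dtx3l and 0.68 for Parp14. The differences were 1.99 ± 0.20 for Parp9, 1.42 ± 0.25 for Dtx3l and 2.47 ± 0.23 for Parp14 (limma adjusted p = 4.50e-04, 0.0093 and 3.19e-04). Dtx3l lost its call without DP array 2 (adjusted p = 0.0605), while Parp9 and Parp14 kept theirs whichever of the 7 arrays was left out.

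The transcription factors did not move as a block. Irf1, an activator induced by interferon gamma as well as by type I interferon, was at 13.31, 13.24 and 12.78 in the unsorted lymphomas, 13.39 in the sorted lymphoma and 13.55 in the line, against 11.04, 11.11 and 11.16 in DP thymocytes. Irf9, the DNA-binding partner of STAT2, was at 9.71, 9.75 and 10.15 in the unsorted lymphomas, 10.30 in the sorted lymphoma and 10.32 in the line, against 8.23, 8.46 and 8.25 in DP thymocytes. Both rose, by 2.07 ± 0.35 and 1.66 ± 0.30 (limma adjusted p = 0.00725 and 0.00989), with the sorted tumour the highest of the 4 lymphomas for each. Irf9 lost its call without DP array 1 or DP array 3 (adjusted p = 0.0561 and 0.0557). Stat2, the partner of IRF9, was at 7.57 to 8.15 in T lymphoma, against 7.74 to 7.96 in DP thymocytes, a difference of 0.03 ± 0.22 (limma adjusted p = 0.963).

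Irf7, the factor that amplifies interferon alpha production, was at 10.87, 9.10 and 11.13 in the unsorted lymphomas, 9.72 in the sorted lymphoma and 11.06 in the line, against 8.33, 8.38 and 8.29 in DP thymocytes. All tumours lay above the normal cells, but the difference of 1.87 ± 0.50 did not pass (limma adjusted p = 0.0593). It passed with only the lymphoma and DP arrays fitted (0.0472), without the sorted lymphoma (0.0436) and without lymphoma 2 (0.0256). Over all alternatives its adjusted p ran from 0.0256 to 0.690. Irf8, a factor of dendritic cells, macrophages and B cells, was at 11.78, 10.33 and 10.99 in the unsorted lymphomas, 7.17 in the sorted lymphoma and 7.50 in the line, against 8.09, 8.26 and 8.41 in DP thymocytes. The unsorted tumours were thus above, and the sorted tumour and the line below, every DP array (difference 1.81 ± 1.16, limma adjusted p = 0.393). Irf8, Samhd1, Bst2, Cxcl10 and Oasl2 ordered the 4 lymphomas as the summed macrophage markers did, from lymphoma 1 through 3 and 2 to the sorted tumour; 8.01% of all genes had that order. The part of macrophages in these values was not tested.

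Among the sensors, Ddx58, which encodes RIG-I, rose evenly. It was at 10.58, 10.60 and 11.10 in the unsorted lymphomas, 10.95 in the sorted lymphoma and 10.38 in the line, against 9.65, 9.51 and 9.58 in DP thymocytes, a difference of 1.23 ± 0.24 (limma adjusted p = 0.0172). It lost the call without DP array 1, 2 or 3 (adjusted p = 0.0731, 0.0916 and 0.0794). Ifih1, encoding the long double-stranded RNA sensor MDA5, was at 11.24, 9.91 and 12.06 in the unsorted lymphomas, 10.11 in the sorted lymphoma and 11.58 in the line, against 8.85 to 9.06 in DP thymocytes. Dhx58, encoding their regulator LGP2, was at 8.88, 7.43 and 9.72 in the unsorted lymphomas, 7.81 in the sorted lymphoma and 9.62 in the line, against 6.71 to 6.74 in DP thymocytes. Zbp1, a sensor of Z-form nucleic acid, was at 9.21, 9.06 and 9.79 in the unsorted lymphomas, 8.86 in the sorted lymphoma and 9.32 in the line, against 7.01 to 7.50 in DP thymocytes. For these 3 genes no lymphoma overlapped the normal cells, yet the differences of 1.86 ± 0.50, 1.73 ± 0.48 and 2.02 ± 0.53 did not pass (limma adjusted p = 0.0612, 0.0657 and 0.0574). All 3 passed without the sorted lymphoma (adjusted p = 0.0324, 0.0375 and 0.0498), and Ifih1 and Dhx58 also without lymphoma 2 (adjusted p = 0.0445 and 0.0305). Over all alternatives the adjusted p ran from 0.0324 to 0.814 for Ifih1, from 0.0305 to 0.822 for Dhx58 and from 0.00303 to 0.610 for Zbp1. Another tested probe set of Zbp1 passed, at 1.71 ± 0.37 (limma adjusted p = 0.0265).

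**Figure D3:**
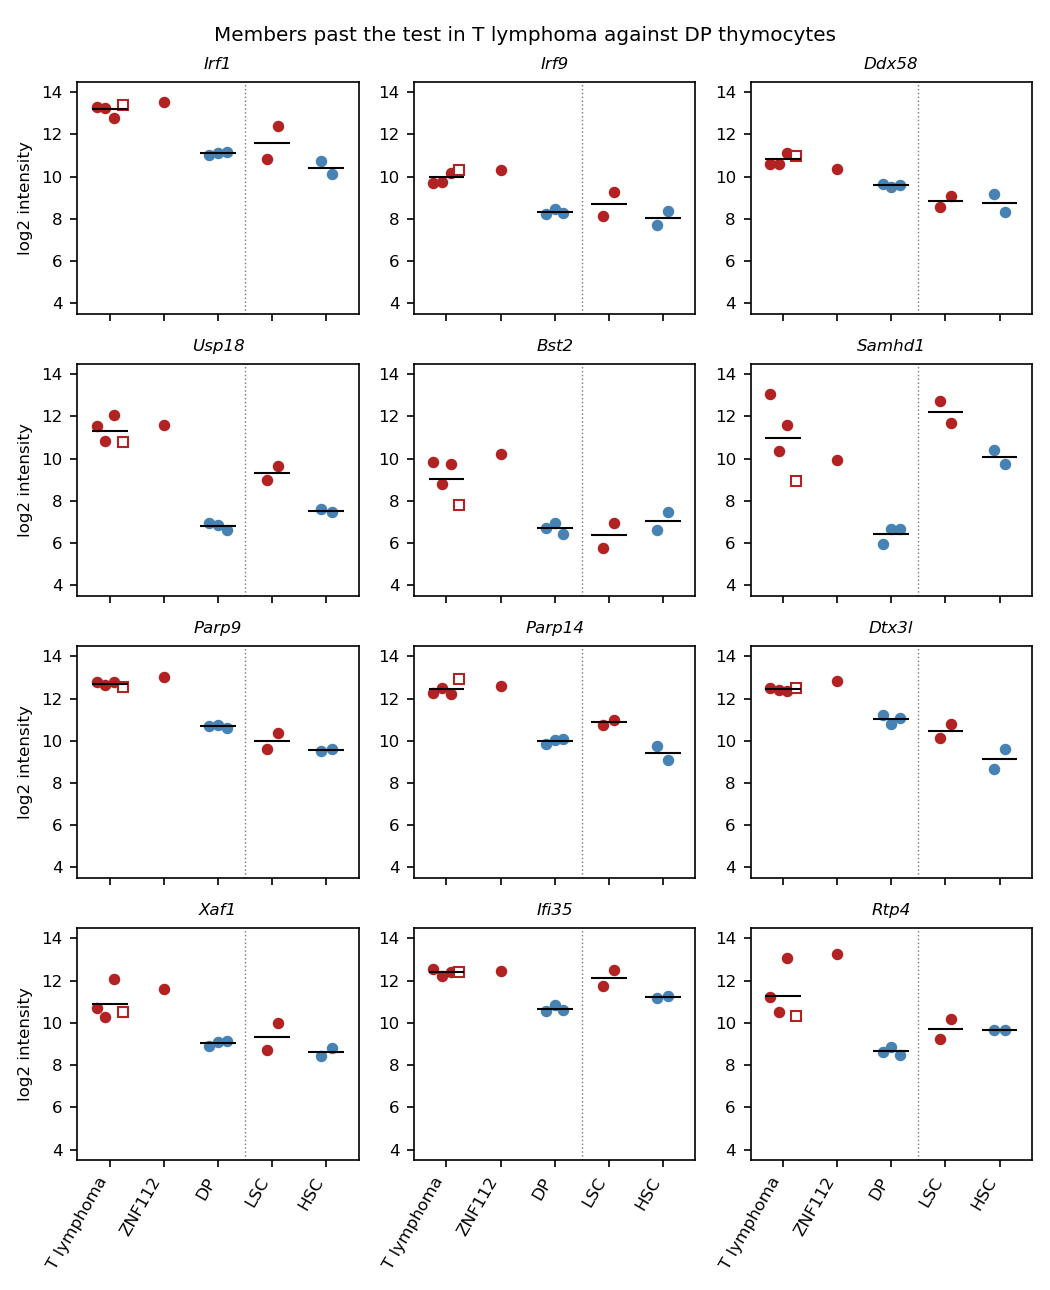
Log2 intensity of the 12 members that rose in T lymphoma, on every array; open squares mark the sorted lymphoma, filled red points the other lymphomas, the ZNF112 line and LSC, blue points the normal cells, and black lines the group means. The sorted lymphoma lies above the 3 DP arrays in each panel, and the points of Parp9, Dtx3l and Ifi35 are tightly grouped.

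Of the remaining members that rose, Ifi35, an interferon-induced leucine zipper protein, was at 12.56, 12.21 and 12.42 in the unsorted lymphomas, 12.39 in the sorted lymphoma and 12.44 in the line, against 10.54, 10.84 and 10.61 in DP thymocytes. It rose by 1.73 ± 0.20 (limma adjusted p = 0.0011), evenly across tumours. Samhd1, an enzyme that degrades deoxynucleotides and restricts retroviruses, was at 13.06, 10.35 and 11.58 in the unsorted lymphomas, 8.95 in the sorted lymphoma and 9.92 in the line, against 5.98, 6.69 and 6.69 in DP thymocytes. It had the largest difference of any member, 4.54 ± 0.82 (limma adjusted p = 0.0101; 0.0593 without DP array 1), but the sorted tumour was lower than the unsorted ones by a margin that did not pass (-2.71 ± 0.89, limma adjusted p = 0.326). With the sorted tumour as the only lymphoma the difference was 2.50 and did not pass. In that fit Irf1, Irf9, Ddx58, Bst2, Dtx3l, Xaf1 and Rtp4 did not pass either, at 2.28, 1.99, 1.37, 1.11, 1.48, 1.46 and 1.69. Other tested Samhd1 probe sets gave 1.00 to 3.11, and 1 of these 4 passed.

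Bst2, or tetherin, which holds budding virus at the cell surface, was at 9.82, 8.80 and 9.73 in the unsorted lymphomas, 7.82 in the sorted lymphoma and 10.21 in the line, against 6.72, 6.93 and 6.45 in DP thymocytes. The line exceeded every tumour, and the sorted tumour was the lowest lymphoma. Its difference of 2.34 ± 0.50 (limma adjusted p = 0.0251) missed the test when any 1 of the other 6 arrays was left out (adjusted p = 0.0548 to 0.117), and was 1.11 with the sorted tumour as the only lymphoma (limma adjusted p = 0.630). Xaf1, a promoter of cell death, was at 10.72, 10.28 and 12.08 in the unsorted lymphomas, 10.49 in the sorted lymphoma and 11.59 in the line, against 8.89, 9.07 and 9.12 in DP thymocytes. Rtp4, a receptor-transporting protein induced by interferon, was at 11.22, 10.53 and 13.06 in the unsorted lymphomas, 10.34 in the sorted lymphoma and 13.27 in the line, against 8.63, 8.84 and 8.49 in DP thymocytes. Both were highest in lymphoma 3 and in the line, and rose by 1.86 ± 0.44 and 2.63 ± 0.58 (limma adjusted p = 0.0374 and 0.0278). Both lost the call without any 1 DP array (adjusted p = 0.124 to 0.151 for Xaf1 and 0.0997 to 0.119 for Rtp4) or without lymphoma 1 (0.0745 and 0.0652).

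The classical antiviral effectors, the IFIT, MX and OAS genes with Rsad2, contributed 0 calls (limma) and were mostly uneven among the tumours. Of all genes 6.55% were called in either direction, so 0 calls among so few genes is near that share. Ifit1, which binds foreign RNA caps, was at 8.97, 7.15 and 11.64 in the unsorted lymphomas, 8.88 in the sorted lymphoma and 9.37 in the line, against 6.52, 6.52 and 6.36 in DP thymocytes. Ifit3, its partner, was at 9.76, 7.36 and 10.88 in the unsorted lymphomas, 7.84 in the sorted lymphoma and 7.82 in the line, against 7.42, 7.27 and 7.18 in DP thymocytes. Their differences of 2.69 ± 1.33 and 1.67 ± 0.90 did not pass (limma adjusted p = 0.268 and 0.304). Lymphoma 3 was the highest tumour for both genes, and lymphoma 2 the lowest, overlapping the normal cells for Ifit3. Ifit2, a further IFIT gene, was at 9.71 to 11.18 in T lymphoma and 9.13 in the line, against 10.61 to 10.75 in DP thymocytes, where its level was well above background and overlapped that of the tumours.

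Mx1, a dynamin-like GTPase that blocks influenza virus and is defective in most inbred laboratory mice, was at 7.57, 6.53 and 10.34 in the unsorted lymphomas, 5.67 in the sorted lymphoma and 6.09 in the line, against 5.57 to 5.66 in DP thymocytes. Mx2, its relative, was at 7.89, 7.20 and 9.49 in the unsorted lymphomas, 6.70 in the sorted lymphoma and 7.37 in the line, against 5.93 to 6.24 in DP thymocytes. Rsad2, or viperin, was at 9.99, 7.84 and 10.73 in the unsorted lymphomas, 7.36 in the sorted lymphoma and 8.64 in the line, against 7.34 to 7.47 in DP thymocytes. In each of these genes lymphoma 3 was the highest and the sorted tumour the lowest lymphoma; Mx1 and Rsad2 of the sorted tumour were at the level of the normal cells. The differences were 1.90 ± 0.92, 1.73 ± 0.56 and 1.59 ± 0.82 (limma adjusted p = 0.261, 0.108 and 0.285), and Mx2 passed without the sorted lymphoma (0.0332; 0.0332 to 1 over all alternatives). All 3 DP arrays lay under the filter level of log2 6.33 for Mx1, Mx2 and Oasl2, so the sizes of these differences are uncertain.

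The OAS family makes or resembles the enzymes of 2′-5′ oligoadenylate synthesis, which start RNA decay. Oas1a was at 9.24, 8.06 and 10.13 in the unsorted lymphomas, 6.50 in the sorted lymphoma and 9.78 in the line, against 7.48, 7.04 and 7.26 in DP thymocytes. The sorted tumour lay below every DP array while the line lay close to the highest tumour. Oasl1, an inhibitor of Irf7 translation in mice, was at 8.36, 7.30 and 8.63 in the unsorted lymphomas, 7.03 in the sorted lymphoma and 6.15 in the line, against 6.93, 6.82 and 6.60 in DP thymocytes. Oasl2, a further relative, was at 7.62, 5.94 and 6.57 in the unsorted lymphomas, 5.20 in the sorted lymphoma and 6.71 in the line, against 5.15, 4.73 and 5.13 in DP thymocytes. For both, the sorted tumour lay just above the normal cells. None of the 3 passed (limma adjusted p = 0.366, 0.388 and 0.142 for Oas1a, Oasl1 and Oasl2), although Oasl2 did without the sorted lymphoma (0.0263; 0.0263 to 1 over all alternatives).

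Cxcl10, a chemokine that attracts activated T cells, was at 11.49, 9.05 and 9.62 in the unsorted lymphomas, 7.89 in the sorted lymphoma and 7.25 in the line, against 6.56, 6.34 and 6.51 in DP thymocytes. No array of the tumours overlapped the normal cells, and the sorted tumour and the line were the lowest above them (difference 3.05 ± 0.91, limma adjusted p = 0.0864; 0.0329 without the sorted lymphoma and up to 1 over all alternatives). Eif2ak2, the gene of the RNA-activated kinase PKR, was at 7.50, 6.93 and 8.26 in the unsorted lymphomas, 6.87 in the sorted lymphoma and 8.87 in the line, against 6.86, 6.55 and 6.65 in DP thymocytes. Its lowest tumour was level with the highest normal array, and the difference was 0.70 ± 0.34. The RNA editor Adar (0.39 ± 0.33) and the nuclear body protein Sp100 (-0.05 ± 0.37) had overlapping groups. None of these 3 passed (limma adjusted p = 0.259, 0.534 and 0.962).

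**Figure D4:**
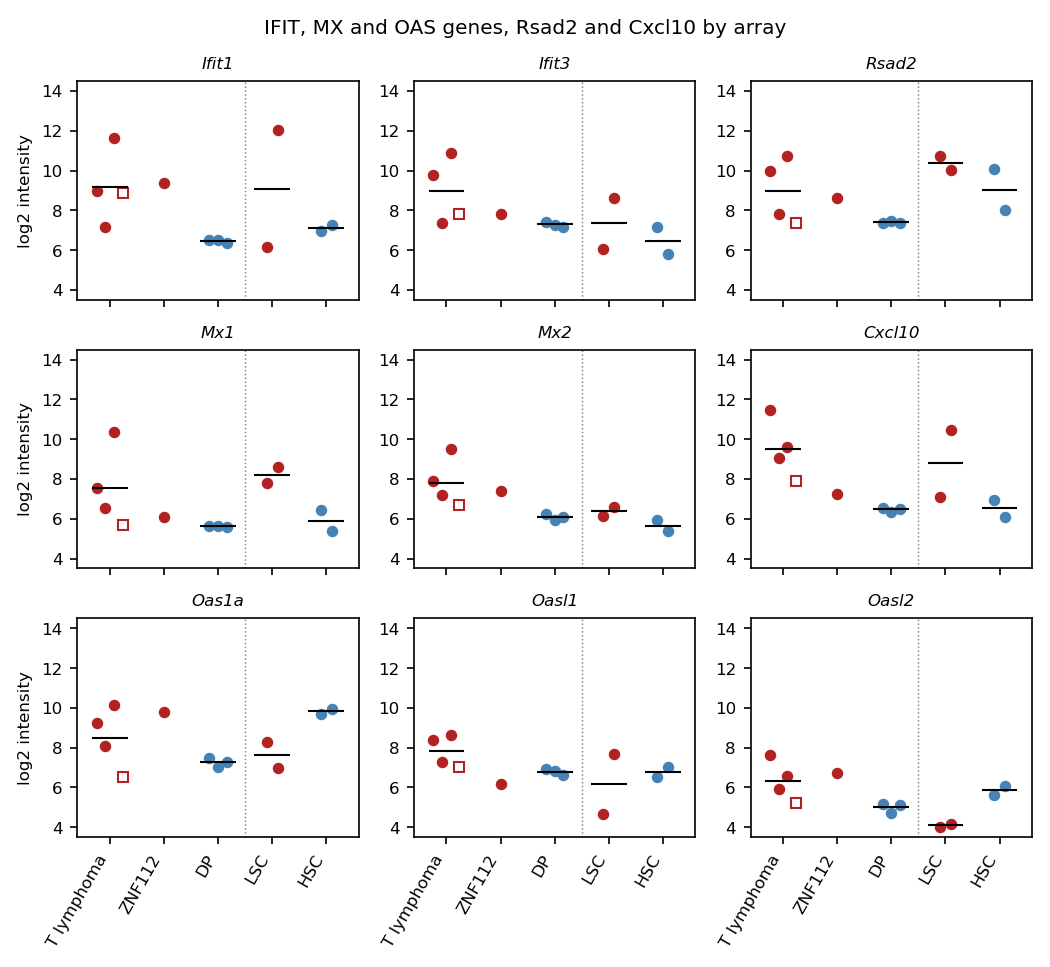
Log2 intensity of 9 antiviral and chemokine genes on every array; open squares mark the sorted lymphoma, red points the other lymphomas, the ZNF112 line and LSC, blue points the normal cells, and black lines the group means. Lymphoma 3, the third filled point from the left, is the highest tumour for Ifit1, Ifit3, Rsad2, Mx1, Mx2, Oas1a and Oasl1, and LSC 2, the right point of its pair, is far above LSC 1 for Ifit1 and Cxcl10.

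The members differ in how much they vary between tumours. The SD over the 4 lymphomas had a median of 0.80 over the members and 0.32 over all genes, so a low SD is the usual state. It was under 0.5 for 11 members. Of these, Irf1, Irf9, Ddx58, Parp9, Parp14, Dtx3l and Ifi35 rose, and Stat2, Zbp1, Trim25 and Adar were not called. The SD was over 1 for 13 members, or 40.6%, against 8.48% of all genes. This spread enters the test together with that of the other groups, so a gene that varies less within all groups is called more readily. Zbp1, with an SD of 0.40 over the lymphomas but LSC arrays at 5.91 and 8.09, passed with only the lymphoma and DP arrays fitted (limma adjusted p = 0.00303). In DP thymocytes the median SD was 0.13 over the members and 0.11 over all genes. The HSC arrays differed from each other by a median of 0.66 over the members and 0.44 over all genes. Lymphoma 3 was the highest of the 4 for 19 members (59.4%, against 29.5% of all genes), and lymphoma 2 for 0 (10.4% of all genes). The sorted lymphoma was the lowest for 15 (46.9%, against 26.9%). Lymphoma 3 was also the array with the B cell markers and, at 3.69, the highest beta-actin ratio of the T cell set; the part of either in its high values was not tested. Against the mean of DP thymocytes, the median member was at 2.03, 0.98 and 2.66 in unsorted lymphomas 1, 2 and 3, at 1.13 in the sorted lymphoma and at 1.89 in the ZNF112 line.

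**Figure D5:**
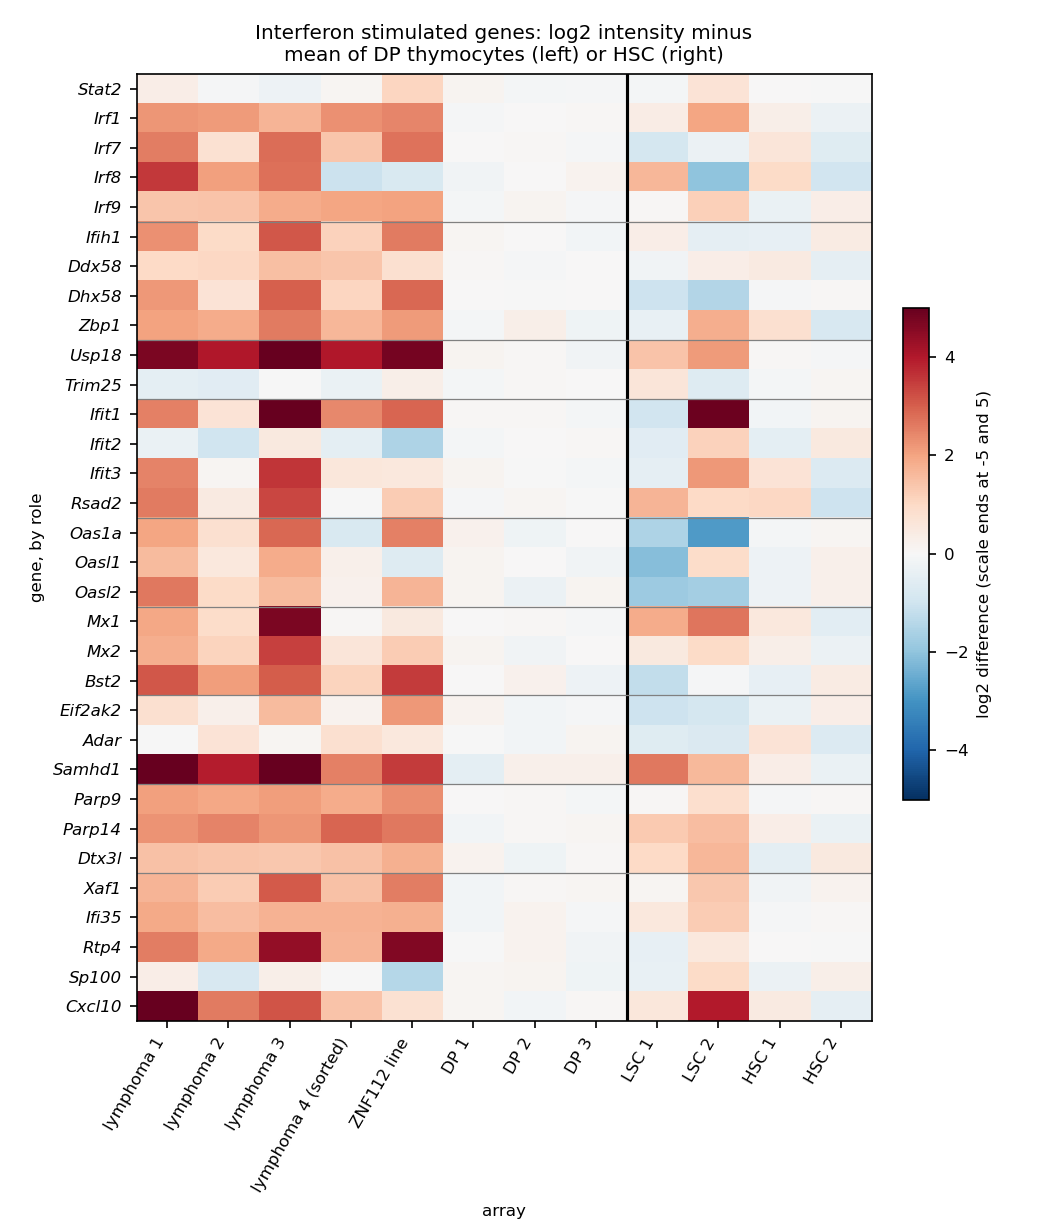
Each cell gives a member's log2 intensity on an array minus the mean of DP thymocytes (arrays left of the black line) or of HSC (right of it), with grey lines between roles and colours limited at -5 and 5. Parp9, Parp14, Dtx3l, Ifi35 and Usp18 are evenly red across the tumours and the line, whereas Ifit1, Ifit3, Rsad2, Mx1 and Mx2 are reddest, among the tumours, in lymphoma 3.

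To see which members go with the sort, the sorted lymphoma was compared with unsorted lymphomas 1, 2 and 3. Of the 32 members, 0 passed (limma, against 0.656% of all genes, 0.0625% higher and 0.594% lower), with 5 at an unadjusted p under 0.05 (9.99% of all genes), all lower in the sorted tumour: Irf8 (-3.86 ± 1.26), Samhd1 (-2.71 ± 0.89), Oas1a (-2.65 ± 0.73), Bst2 (-1.63 ± 0.57) and Oasl2 (-1.51 ± 0.55). Oas1a passed when unsorted lymphoma 2 was left out (-3.19, limma adjusted p = 0.0413). The median member was at -0.66 and the median gene at 0.05. Irf1, Irf9, Parp14, Dtx3l and Ddx58 were as high in the sorted tumour as in the others, and its macrophage and stroma marker sums were near those of DP thymocytes. Since 1 tumour was sorted, the sort and the tumour cannot be told apart.

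The ZNF112 line was likewise compared with the 4 lymphomas. Limma called 0 members (1.16% of all genes, 0.539% higher and 0.617% lower), and 4 (12.5%) were at an unadjusted p under 0.05, near the 12.1% of all genes: Rtp4 (1.98 ± 0.85), Eif2ak2 (1.48 ± 0.50) and Stat2 (1.07 ± 0.32) were higher in the line and Sp100 (-1.38 ± 0.54) lower. Rtp4 passed when lymphoma 3 was left out (2.57, limma adjusted p = 0.0332). The line lay above every DP array for 28 members and below for 4, namely Irf8, Ifit2, Oasl1 and Sp100, while 43% of all genes lay above. It is a single array, so its own spread is not known.

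LSC were compared with HSC to ask whether the stem cell fraction of the disease shows the same genes. Usp18, Parp14 and Dtx3l rose, and 0 members fell (limma adjusted p under 0.05); 4.05% of all genes rose and 6.21% fell, so the share of members called, 9.38%, is near the 10.3% of all genes. Usp18 was at 8.97 and 9.65 in LSC, against 7.61 and 7.47 in HSC. Parp14 was at 10.75 and 10.98 in LSC, against 9.77 and 9.10 in HSC, and Dtx3l was at 10.13 and 10.79, against 8.68 and 9.61. In each gene both LSC arrays lay above both HSC arrays, with differences of 1.77 ± 0.42, 1.43 ± 0.30 and 1.32 ± 0.33 (limma adjusted p = 0.0298, 0.0172 and 0.0345). Another tested probe set of Dtx3l was at 0.10 ± 0.51 and did not pass. These 3 calls need the T cell arrays in the fit. With the 4 LSC and HSC arrays alone, which leaves fewer residual degrees of freedom, limma called 0 members and 0 genes. In that fit 7 members and 1535 genes were at an unadjusted p under 0.05. Usp18 and Dtx3l also lost their calls without HSC 1 (adjusted p = 0.0791 and 0.134) or LSC 2 (0.0705 and 0.0834), and Usp18 and Parp14 without HSC 2 (0.116 and 0.0876).

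LSC 1 and LSC 2 lay far apart in several members. Ifit1 was at 6.15 in LSC 1 and 12.02 in LSC 2, against 6.97 and 7.25 in HSC. Cxcl10 was at 7.10 and 10.47 in LSC, against 6.96 and 6.09 in HSC. Oasl1 was at 4.66 and 7.69 in LSC, against 6.53 and 7.04 in HSC. In all 3 genes LSC 2 was far above LSC 1, and for Ifit1 and Oasl1 the HSC arrays lay between them. Over the members LSC 2 minus LSC 1 had a median of 0.72, against 0.03 over all genes. Irf8 ran the other way, at 12.59 in LSC 1 and 8.89 in LSC 2, against 11.87 and 9.98 in HSC, as did the granulocyte and macrophage marker sums; whether these cells account for it was not tested. Without LSC 1, limma called 9 members (28.1%, against 18.1% of all genes), all higher, including Irf1 (1.96), Ifit1 (4.91), Cxcl10 (3.95) and Ifi35 (1.28); without LSC 2 it called 2 (6.25%, against 21.2% of all genes), Parp14 higher and Oasl1 lower (-2.13).

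Other members were lower in LSC without passing the test. Oas1a was at 8.27 and 6.97 in LSC, against 9.70 and 9.93 in HSC (difference -2.19 ± 0.97, limma adjusted p = 0.191). Oasl2 was at 4.03 and 4.16 in LSC, against 5.62 and 6.09 in HSC, and Dhx58 was at 6.30 and 5.83, against 7.27 and 7.37. Eif2ak2 was at 5.44 and 5.59 in LSC, against 6.12 and 6.82 in HSC. In these 4 genes, and in no other member, both LSC arrays lay below both HSC arrays, against 22.5% of all genes. The LSC arrays of Oasl2, Dhx58 and Eif2ak2 were all under the filter level, so the sizes of these differences are uncertain. Both arrays lay above HSC for 9 members, among them Irf1 (10.81 and 12.39, against 10.74 and 10.11) and Ifi35 (11.75 and 12.50, against 11.16 and 11.28), against 20.5% of all genes. Samhd1 was at 12.72 and 11.69 in LSC, against 10.42 and 9.74 in HSC. Mx1 was at 7.78 and 8.59 in LSC, against 6.42 and 5.39 in HSC, and Mx2 was at 6.15 and 6.59, against 5.93 and 5.36. None of these 3 passed (2.12 ± 1.07, 2.28 ± 1.21 and 0.72 ± 0.74, limma adjusted p = 0.250, 0.275 and 0.579). Another tested probe set of Samhd1 did pass, at 1.72 ± 0.42 (limma adjusted p = 0.0347), while its remaining ones, at 0.77 to 0.85, did not.

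Whether the change in LSC differed from that in T lymphoma was tested as the difference of the contrasts. Of the 32 members, 4 passed, all lower in the LSC contrast (5.28% of all genes were lower): Oasl2 (-3.09 ± 0.79), Dhx58 (-2.98 ± 0.79), Usp18 (-2.72 ± 0.53) and Parp9 (-1.55 ± 0.32; limma adjusted p = 0.0424, 0.0470, 0.0161 and 0.0213). Parp9, for example, rose by 1.99 in T lymphoma, while in LSC it was at 9.61 and 10.39, against 9.50 and 9.63 in HSC, and did not pass (0.44 ± 0.26). Ddx58 did not pass by the probe set used (-1.16 ± 0.40, limma adjusted p = 0.108). Another of its tested probe sets was lower (-1.90 ± 0.45, 0.0364), and a further one was at 0.09 ± 0.42 and did not pass. The difference was negative for all but 5 members, with a median of -1.12 over the members and -0.02 over all genes. Its sign partly follows from the T lymphoma contrast, which is subtracted and was positive for 29 of the 32. Leaving out DP array 3 ended all 4 calls, with Usp18 at an adjusted p of 0.0508, and leaving out DP array 1 or 2 left Usp18 as the only call among the 32 members. There were 2 calls (6.25%) without HSC 1 or without HSC 2, against 7.83% and 6.52% of all genes, and 8 (25%) without LSC 2, against 19.1%, all lower.

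The genes that make and relay interferon were followed through a list of 43, of which 36 had a probe set and 30 were tested. The probe sets of Ifnb1 and the interferon alpha genes Ifna1, Ifna2, Ifna4 and Ifna5 stayed under the filter level on all 12 arrays, with Ifnb1 at 5.58 to 5.64 in T lymphoma and 5.63 in the line, against 5.65 to 5.73 in DP thymocytes. Ifng, encoding interferon gamma, was at 13.37, 9.34 and 8.30 in the unsorted lymphomas, 6.55 in the sorted lymphoma and 5.74 in the line, against 5.19 to 5.28 in DP thymocytes. It was at 12.80 and 12.46 in LSC, against 3.76 and 3.79 in HSC. Its groups did not overlap in either comparison; it passed in LSC (8.85 ± 1.66, limma adjusted p = 0.0113) and not in T lymphoma (4.15 ± 1.27, 0.0919), and the difference of the contrasts did not pass (4.70 ± 2.09, 0.197). Its DP and HSC arrays lay under the filter level, so the sizes of these differences are uncertain. Of 4 markers of natural killer cells, which also make interferon gamma, Ncr1, Klra8 and Eomes were near or under the filter level on all 12 arrays. Nkg7, which cytotoxic T cells also carry, was at 13.10, 9.81 and 9.39 in the unsorted lymphomas, 8.54 in the sorted lymphoma and 7.61 in the line, against at most 7.08 in DP thymocytes. It was at 9.94 and 11.77 in LSC, against 9.25 and 11.12 in HSC. In T lymphoma 5 of the 30 rose and 0 fell (limma, against 3.37% of all genes that rose): the receptor chains Ifnar2 (1.45 ± 0.27) and Il10rb (1.65 ± 0.27), the feedback inhibitor Socs3 (3.59 ± 0.44), the phosphatase gene Ptpn2 (0.74 ± 0.17) and the adaptor gene Myd88 (1.32 ± 0.31). In LSC 5 of the 30 rose and 0 fell (limma), against 4.05% of all genes that rose and 6.21% that fell. The 5 were Ifng, Socs3 (3.97 ± 0.58), the receptor chain Ifngr1 (1.76 ± 0.46), the signal transducer Stat4 (1.59 ± 0.43) and Ptpn2 (1.12 ± 0.23). These calls too need the T cell arrays in the fit, since the LSC and HSC arrays alone gave 0 called genes.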

How the data were processed

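Amplified RNA was hybridised to Affymetrix arrays, 1 per sample, per the labels' protocols. The deposited intensity values are linear; the submitters' processing notes name RMA with no version, and log2 was taken here. The number of arrays limits the precision.

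Of 45101 probe sets, 64 were array controls; 34945 others carried 1 symbol, 932 several and 9160 none here, and 34741 matched RefSeq by Entrez identifier. Each gene was represented by its brightest probe set on average, and 12797 genes exceeded log2 6.33 (the median value, intensity 80.2) in at least 2 arrays. Tests used limma 3.58.1 in R 4.3.3 (two-sided, a mean per group, spread shared over 12 arrays, Benjamini-Hochberg over all genes tested); the script was checked on simulated data. The sorted lymphoma was its own group where compared, and single arrays were taken to have the spread of the other groups. The labels call replicates biological, and several were pools.

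Members and lists were chosen with earlier results of these data known. Called members are given array by array, as are uncalled ones whose groups do not overlap. Same-numbered replicates were not paired by the labels, and their deviations correlated at -0.067 to 0.098. Alternatives covered the scaling, filter, probe set choice, pseudocount of 16, spread, block, the arrays fitted and each left-out array.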

Additional observations from a re-analysis of the deposited data

Results flagged for a closer look

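The change between disease and normal cells differed between LSC and T lymphoma in 4 members by the test of the difference of the contrasts (LSC minus HSC, less T lymphoma minus DP thymocytes). The difference was -3.09 for Oasl2, -2.98 for Dhx58, -2.72 for Usp18 and -1.55 for Parp9. For Usp18 both contrasts were positive, 1.77 in LSC and 4.49 in T lymphoma, and for Parp9 they were 0.44 and 1.99. For Oasl2 they were -1.76 and 1.33, and for Dhx58 -1.25 and 1.73, none of which passed alone. Oasl2 lay under the filter level in all LSC, HSC and DP arrays and Dhx58 in both LSC arrays, so the sizes of their differences are uncertain. In none of the 32 members did 1 of the 4 lymphomas stand apart from the other 3 by Dixon's criterion.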

How the results depend on the processing

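Of 2560 recomputed member differences, 2446 stayed on their side of the threshold, 75 lost and 39 gained a call, and 0 called values changed sign; 73 that passed neither way changed sign. For T lymphoma against DP thymocytes the 12 member calls became 4 with the sorted lymphoma as the only lymphoma, and 6 to 19 when single arrays were left out. The cause was not tested. For LSC against HSC the 3 calls became 0 with only these 4 arrays, which leaves fewer residual degrees of freedom, 1 with the replicate block and 1 to 9 without single arrays. The 4 calls for the difference of the contrasts became 2 with no filter on low values, where more genes are tested, 2 with the pseudocount of 16 and 0 to 8 without single arrays. For the sorted lymphoma and for the cell line, the 0 calls became 0 to 1 without single arrays. Same-numbered samples share only a number; the replicate block gave 12 calls in T lymphoma, 10 of them shared (Irf1 and Ddx58 lost, Irf8 and Oasl2 gained), and 4 for the difference, 2 of them shared (Dhx58 and Parp9 lost, Oas1a and Bst2 gained), and 0 for the sorted lymphoma and the line. Over all genes the T lymphoma count of 838 became 1826 with only the compared arrays, 303 with the sorted lymphoma alone and 383 to 1572 without single arrays. The LSC count of 1313 became 0, 822 with the block and 774 to 2716 without single arrays, and the difference count of 1136 became 446 to 2444 without single arrays. The sorted lymphoma count of 84 became 0 with only lymphoma arrays (1281 at an unadjusted p under 0.05) and with the block (1328), 53 with no filter, 50 with the mean of a gene's probe sets and 40 to 248 without single arrays. The cell line count of 148 became 4 with only the compared arrays, 15 with the block and 68 to 290 without single arrays. Centring each array on its median moved the median of all genes in the sorted lymphoma from 0.05 to 0.16.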

Other observations

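The members that rose in T lymphoma could be checked through their other probe sets. Of the 12 genes, 7 had other tested probe sets, 12 in all; 6 of these also rose, 0 fell, and 6 did not pass, at 0.31 to 1.43. The genes with a second probe set that rose were Ddx58, Dtx3l, Ifi35, Parp14 and Samhd1. For Xaf1 and Rtp4 the other probe set did not pass, at 1.12 ± 0.46 and 0.85 ± 0.39 (limma, Benjamini-Hochberg adjusted p = 0.188 and 0.227).

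Among the endosomal nucleic acid receptors of the pathway list, Tlr3, the receptor for double-stranded RNA, was at 8.35, 7.70 and 8.72 in the unsorted lymphomas, 5.01 in the sorted lymphoma and 5.20 in the ZNF112 line, against 4.98 to 5.04 in DP thymocytes. It was at 11.09 in LSC 1 and 4.72 in LSC 2, against 7.78 and 5.88 in HSC. Tlr3 did not pass in T lymphoma (2.43 ± 1.39, limma adjusted p = 0.338) or in LSC (1.07 ± 1.83, 0.761). Its values in DP thymocytes, the sorted lymphoma, the line, LSC 2 and HSC 2 lay under the filter level, so the sizes of its differences are uncertain. Stat4, a signal transducer of cytokine receptors, fell by 5.26 in the ZNF112 line (limma adjusted p = 0.00236), to 5.35, against 10.00 to 11.12 in the 4 lymphomas, and Il10rb fell by 3.35 there (limma adjusted p = 0.00873), to 6.27, against 9.05 to 10.16. Both values in the line are under the filter level of 6.33 and come from 1 array, so the sizes of these falls are uncertain.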
